A study of Daphnia magna with 30 samples.

Results

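Transcript levels in adult Daphnia magna reared under a short day, 8L:16D, were set against those of animals reared under the control photoperiod, 16L:8D, to ask which transcripts differed with day length alone. The arrays were chosen by their titles and by no measured value: 6 arrays titled 8L:16D and as many titled 16L:8D, in all 12 of the 30 arrays of the first trial of the study. The 18 other arrays (4L:20D, 12L:12D and 20L:4D) entered the shared estimate of spread and gave the between-animal components described further on. All 12 animals were females 21 days old of a single genotype, from cultures begun with 1 individual and kept under 16L:8D, and were reared from birth at 25 °C in hard reconstituted water with algae and yeast-cerophyl-trout chow. Each photoperiod had 3 exposure chambers (replicates 1 to 3), each stocked with 20 animals, and a pair of animals per chamber (A and B) was hybridised singly as whole animals, developing eggs and neonates included.

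The design left several properties of the groups bound to day length. The 3 chambers of a photoperiod shared 1 box, so box and photoperiod cannot be told apart. Animals were collected within 1 hr of lights on, so the dark phase that had just ended was 16 hr long in 8L:16D and 8 hr long in 16L:8D, and hours of light and of preceding dark cannot be told apart either. In whole animals, fewer cells of a type and less RNA per cell cannot be told apart.

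Daphnia alternate between clonal reproduction by females and a sexual phase with males and resting eggs, and day length is among the seasonal cues known to act on that switch. Adult females moult and release a brood in a repeating cycle, in which the cuticle is rebuilt and the ovary is loaded with yolk. Light is perceived through opsins of the compound eye and the nauplius eye, and arthropod clocks are built on proteins such as Period.

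The labelled sample type was checked on transcripts of the ovary, cuticle and eye. The probe DM00375P2, for a vitellogenin fused with superoxide dismutase, a yolk precursor, was well above background on all 12 arrays. Its log2 value, which is the signal relative to the 75th percentile of the array, was 2.12 ± 0.54 in 8L:16D, against 1.88 ± 0.17 in 16L:8D (SD, n = 6). The rhodopsin probe DM06131P3 averaged 5.36 ± 0.21 in 8L:16D, against 5.23 ± 0.28 in 16L:8D, and a cuticle protein probe, DM12885P2, averaged 5.10 ± 1.20 in 8L:16D, against 3.40 ± 1.94 in 16L:8D. All 3 probes were well above background on every one of the 12 arrays, and a photoperiod has no targeted gene that could check the labels themselves.

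The arrays themselves were alike in brightness, with one exception. Between 78.3% and 85.6% of probes were well above background in the 8L:16D arrays, and between 79.4% and 80.9% in 5 of the 16L:8D arrays. Replicate 3A of 16L:8D had 69.5%. The 75th percentile of intensity ran from 359 to 612 units in 8L:16D and from 375 to 533 units in 16L:8D. The arrays lay on several slides, and slide 2 alone held both groups, with 2 of the 8L:16D arrays and 1 of the 16L:8D arrays.

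The sequences of 8 probes carry the results that follow and are given 5′ to 3′ as designed, in lower case. They are the 2 probes past the adjusted threshold (DM05417P2 and DM14137P3), a second probe with the same annotation as DM14137P3 (DM07202P1), and 5 probes from the groups described further on. The only capitals mark a run of 11 T at the end of DM12915P1, the 1 probe of the set with no database match.
DM05417P2: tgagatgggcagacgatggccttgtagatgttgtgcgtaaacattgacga
DM14137P3: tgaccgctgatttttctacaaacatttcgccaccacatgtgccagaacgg
DM07202P1: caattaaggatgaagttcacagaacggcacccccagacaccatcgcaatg
DM04058P1: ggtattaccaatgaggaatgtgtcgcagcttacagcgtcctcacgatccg
DM02748P1: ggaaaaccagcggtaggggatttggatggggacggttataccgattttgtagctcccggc
DM12915P1: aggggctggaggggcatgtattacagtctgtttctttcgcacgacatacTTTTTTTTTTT
DM08772P1: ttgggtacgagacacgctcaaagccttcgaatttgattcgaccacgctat
DM00620P2: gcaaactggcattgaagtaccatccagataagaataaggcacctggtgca
The longest run that DM14137P3 and DM07202P1 share is 8 bases, so each probe reads a different stretch.

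Across all probes, the short day and the control differed at 2 of 14336 probes at an adjusted p below 0.05 (0.014% of those tested), and both were lower in 8L:16D (0.014%; 0% higher). Without adjustment, 2029 probes (14.2%) had a p below 0.05, of which 954 (6.65%) were higher and 1075 (7.5%) were lower in 8L:16D, and 529 (3.69%) had a p below 0.01. The call rule of the study's methods, which works on p-values without adjustment (below 0.01 over the 5 photoperiods and below 0.05 for the pair) and on a difference of 1.5-fold or more, was met by 148 probes (1.03%), 88 higher (0.614%) and 60 lower (0.419%). On quantile-normalized values 47.8% of the probes meeting it were higher in 8L:16D, against 59.5% on the main scaling. The highest and lowest animals of the groups did not overlap for 125 probes (0.872%), 62 of them higher (0.432%) and 63 lower (0.439%).

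The typical probe differed little. The median log2 difference (8L:16D minus 16L:8D) was 0.02, its 5th and 95th percentiles were -0.91 and 0.92, and 51.9% of probes were above 0. Of the probes that met the methods' rule, 80 were well above background on all 12 arrays, with 40 higher and 40 lower. Only 27 of the 148 had groups that did not overlap.

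**Figure D1:**
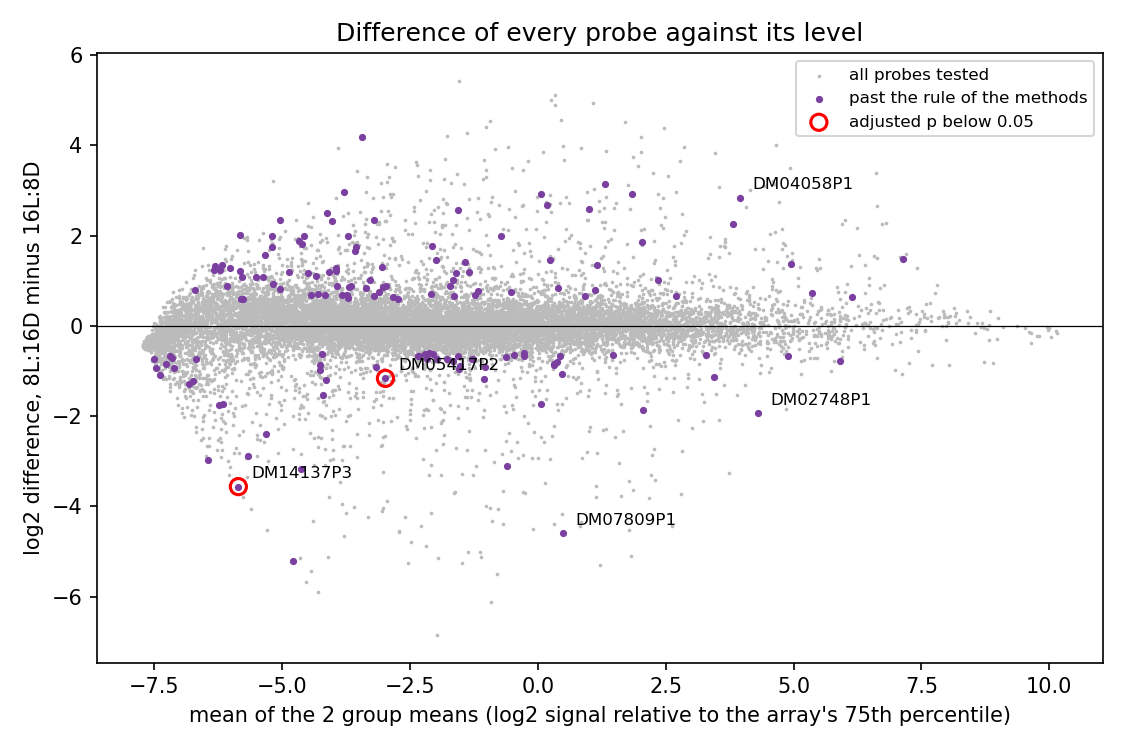
Log2 difference of each probe (8L:16D minus 16L:8D) against its level, the mean of both group means as log2 signal relative to the 75th percentile of the array. Grey points are all 14336 probes tested, purple points the 148 that met the rule of the methods, and red circles the 2 with an adjusted p below 0.05. Both circled probes lie below 0, and many grey points lie farther from 0 than either.

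DM05417P2 is annotated as a high-affinity choline transporter, the carrier that returns choline to cholinergic nerve endings for acetylcholine synthesis. Its 8L:16D animals had log2 values from -3.99 to -3.24 with a median of -3.56, and its 16L:8D animals from -2.93 to -2.07 with a median of -2.30. Every 8L:16D animal lay below every 16L:8D animal. The transcript fell by 1.17 on the log2 scale in 8L:16D (SE 0.20, limma adjusted p 0.0479), a 2.24-fold lower level. The difference was -0.90 between the A animals and -1.43 between the B animals, and on slide 2 it was -1.52. The call was lost in 14 of 26 alternatives (adjusted p up to 0.364), among them leaving out any 1 of the 6 chambers (0.0926 to 0.223), slide as a fixed block in place of the subsample letter (log2 difference -1.23, adjusted p 0.314) and normexp with quantile normalization (-0.69, 0.122). The direction held in all 26.

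DM14137P3 matches the uncharacterized Daphnia magna protein APZ42_030656. It was well above background on 0 of the 8L:16D arrays and 5 of the 16L:8D arrays, so its change is a bound. Measured values ran from -8.22 to -6.79 in 8L:16D with a median of -7.69, against -5.19 to -2.59 in 16L:8D with a median of -4.02, and the groups did not overlap. Its short-day level was lower by at least 2.95-fold on the main scaling. That bound sets each 8L:16D array at no less than the dimmest probe still well above background. The bounds given here and further on hold for that floor and scaling only. The limma adjusted p of 0.0049 was taken on the measured values, without the floor. The call was lost without replicate 2 (adjusted p 0.0946) or replicate 3 (0.142) of 8L:16D, without replicate 1 (0.0503) or replicate 2 (0.0533) of 16L:8D, and with slide as a fixed block in place of the subsample letter (0.314). With normexp background correction and quantile normalization together, its log2 difference was -0.60 (adjusted p 0.191), a smaller change than the bound. DM07202P1, the second probe with this annotation, was well above background on 0 of the 8L:16D arrays and 1 of the 16L:8D arrays, so no fold is given (adjusted p 0.245).

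Another 2 probes that met the methods' rule were well above background on 5 arrays of 1 group and on 0 of the other. DM04908P1, annotated as a serine threonine-protein kinase, was well above background on 5 of the 8L:16D arrays and 0 of the 16L:8D arrays. The short-day level was at least 1.51-fold higher (adjusted p 0.245). DM08656P1, without a database match, showed the reverse, on 0 of the 8L:16D arrays and 5 of the 16L:8D arrays, and was lower by at least 2.88-fold under the short day (adjusted p 0.185). DM08656P1 passed the adjusted threshold in 3 of 25 alternatives. Its adjusted p was 0.012 without replicate 3 of 16L:8D, 0.00602 without replicate 3A alone and 0.00984 with array quality weights. In the other 22 it did not pass (adjusted p up to 0.666). Over the 25, its log2 difference ran from -3.18 to -0.57.

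**Figure D2:**
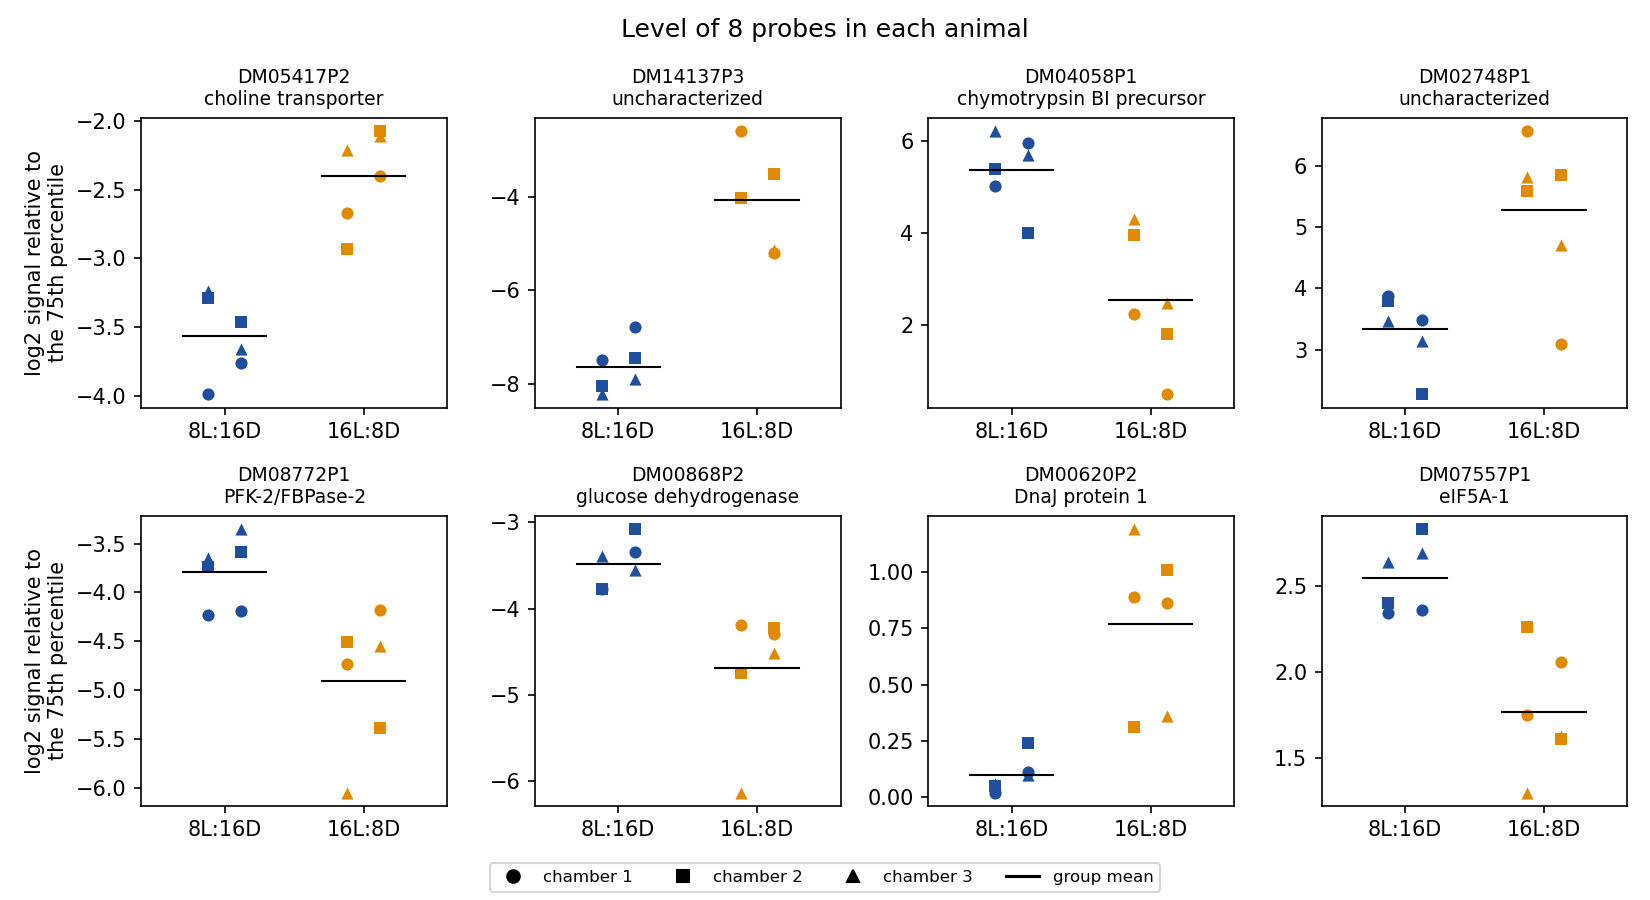
Log2 signal of 8 probes relative to the 75th percentile of the array in each of the 12 animals, 8L:16D in blue left of 16L:8D in orange. Marker shapes are the 3 chambers, A animals stand left and B animals right of each group's centre, the line is the group mean, and the vertical range differs between panels. The groups do not overlap for DM05417P2, DM14137P3, DM00868P2, DM00620P2 and DM07557P1, and they do for the other 3.

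In all, 80 probes met the methods' rule and were well above background on every array of both groups. Of those named in the study's supplementary table, the one with the highest difference was a digestive protease. A missing name means only that the probe had none in that table. DM04058P1 is annotated as a chymotrypsin BI precursor, a serine protease of the gut. Its log2 values ran from 3.99 to 6.23 in 8L:16D with a median of 5.54, against 0.48 to 4.31 in 16L:8D with a median of 2.35. A single 8L:16D animal lay within the 16L:8D range. The log2 difference was 2.84 (SE 0.63, unadjusted p 0.000176, adjusted p 0.185).

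DM05678P4, annotated as nitrate reductase 1, had log2 values from 2.14 to 3.98 in 8L:16D (median 2.85), against 0.02 to 2.42 in 16L:8D (median 1.13). Its log2 difference was 1.85 (SE 0.39, adjusted p 0.148). The highest differences among these 80 belonged to probes with no name in the supplementary table. They were DM14488P1 at 3.14 (SE 0.89), DM07008P1 at 2.92 (SE 0.90) and DM02577P2 at 2.91 (SE 0.90). Each had a limma adjusted p of 0.245 or above. In all 3 the 16L:8D animals were more spread than those of 8L:16D, as in DM14488P1, with an SD of 0.98 in 8L:16D, against 2.37 in 16L:8D. DM08102P3 differed by 2.26 (SE 0.64). DM08460P1, also without a name in that table, was the 1 probe of the 10 highest whose groups did not overlap. It ran from 0.87 to 2.03 in 8L:16D, against -3.44 to 0.57 in 16L:8D.

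At the low end of the 80, DM07809P1 had the log2 difference of largest size, -4.60 (SE 1.62, adjusted p 0.269). It ran from -2.44 to -1.20 in 8L:16D, against -1.56 to 6.90 in 16L:8D, with medians of -1.73 and 3.04 in 8L:16D and 16L:8D. DM10367P4, also without a name in the supplementary table, was at -3.11 (SE 1.28, adjusted p 0.311). It ran from -3.33 to 0.29 in 8L:16D, against -2.90 to 5.10 in 16L:8D. The SD was 0.46 in 8L:16D, against 4.38 in 16L:8D for DM07809P1, and 1.32 in 8L:16D, against 3.00 in 16L:8D for DM10367P4.

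Other probes of the low end had smaller differences. DM02748P1, the bright transcript of the uncharacterized protein APZ42_005326, ran from 2.27 to 3.88 in 8L:16D (median 3.47), against 3.09 to 6.57 in 16L:8D (median 5.71), a log2 difference of -1.93 (SE 0.41, adjusted p 0.148). DM12915P1, the probe with the T run, was confined to -0.22 to 0.08 in 8L:16D and ran from 0.34 to 1.72 in 16L:8D, with a log2 difference of -1.07 (SE 0.24, adjusted p 0.185). DM05875P1, without a name in the supplementary table, ran from -1.17 to 3.07 in 8L:16D, against 1.15 to 3.87 in 16L:8D. It differed by -1.86 (SE 0.84, adjusted p 0.334). DM04022P1, annotated as the serine/threonine-protein kinase Fused, differed by -0.99 (SE 0.25, adjusted p 0.236). None of these passed adjustment, and the groups overlapped for all of them but DM12915P1.

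Slide 2, the one slide with both groups, gave a value within a slide but no test. The log2 difference there was 2.73 for DM04058P1, 2.23 for DM05678P4, -0.98 for DM04022P1 and -0.87 for DM02748P1. It was 0.15 for DM14488P1, 0.25 for DM02577P2 and -0.31 for DM07809P1, and for DM10367P4 it was 0.97, opposite in sign to the difference over all arrays. Of 65 probes named here, 7 had the opposite sign on slide 2, and 25 more had the same sign with a difference over 1.5 times smaller.

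With normexp background correction and quantile normalization together, the differences of 31 of these 65 probes were over 1.5 times smaller, and none was over 1.5 times larger. Among probes not well above background on every 16L:8D array, DM13474P3 had a difference of 0.30 in that setting, DM03056P3 of 0.31, DM06877P4 of 0.32, DM08772P1 of 0.35 and DM00868P2 of 0.28.

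Annotation lists were drawn by keyword from the names in the supplementary table. That table holds 959 probes, 895 of them with a name, selected for change in the first or the second trial. For 225 the selection used the first trial, the arrays compared here, so list counts are a description and no independent evidence. Of the 959, 119 had an unadjusted p below 0.05 and were higher in 8L:16D, 94 had one and were lower. Their median log2 difference was 0.18, against 0.02 over all probes, and 63.5% of their differences were above 0, against 51.9%. Over all 14336 probes, 6.65% had an unadjusted p below 0.05 and were higher, and 7.5% had one and were lower. No list count below was tested against these shares. In all 18 lists together, the choline transporter was the 1 member past the adjusted threshold.

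The medians of the nerve, eye and clock lists lay between -0.11 and 0.40. Of 9 neural signalling probes, 1 was higher and 2 were lower at an unadjusted p below 0.05 (median log2 difference -0.11). Beside the choline transporter, DM10654P3, annotated as an ionotropic kainate receptor of glutamate signalling, differed by -1.20 (SE 0.32, adjusted p 0.245). Its log2 values ran from -5.89 to -3.68 in 8L:16D, against -3.99 to -3.22 in 16L:8D. Another probe of the list with the kainate receptor name took the opposite sign, at 0.88 (SE 0.63, limma adjusted p 0.521). That brighter probe averaged 2.31 in 8L:16D, against 1.43 in 16L:8D. DM03084P2, the axon guidance protein Semaphorin-2A, differed by 0.69 (SE 0.31, adjusted p 0.332).

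No probe of the 3 visual transcripts or the 3 circadian transcripts in the table had an unadjusted p below 0.05. The arrestin probe DM03055P2, whose product ends rhodopsin signalling, averaged 4.71 ± 0.22 in 8L:16D, against 4.86 ± 0.21 in 16L:8D (SD, n = 6), a difference of -0.16 (SE 0.15). The Period probes DM14516P3 and DM09904P4 differed by 0.40 (SE 0.21) and -0.21 (SE 0.21), with adjusted p-values of 0.394 and 0.668. At this spread, differences of their size could not be told from 0.

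A set of 11 targets sorted by function in the study's text added rhodopsins, an F-box protein, a testis protein and further cuticle and egg transcripts. They were selected on the first trial, the arrays compared here, so their count is no independent evidence. Of these, 4 were higher and 2 lower at an unadjusted p below 0.05, against 14.2% of all probes in either direction, and 0 passed adjustment with limma. A rhodopsin gprop1 probe, DM01796P2, ran from -0.97 to -0.66 in 8L:16D, against -1.09 to -0.46 in 16L:8D, a difference of -0.22 (SE 0.10, adjusted p 0.342). The other rhodopsin probes differed by 0.14 (DM06131P3, SE 0.18), -0.08 (DM06155P2, SE 0.19) and 0.12 (DM12611P4, SE 0.27), and the F-box/LRR-repeat probe DM12109P1 by 0.05 (SE 0.14). DM04300P2, named for a testis development protein, differed by -0.57 (SE 0.25, adjusted p 0.33) and was well above background on 4 of the 8L:16D arrays and 3 of the 16L:8D arrays.

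Cuticle, chitin and egg transcripts had the highest list medians. Of 11 cuticle and chitin probes, 4 were higher and 0 lower at an unadjusted p below 0.05 (median 0.79). Of the 959 probes of the whole table, 119 were higher and 94 lower at that limit. DM03120P2, a chitin deacetylase that modifies chitin of the exoskeleton, ran from -0.90 to 0.95 in 8L:16D, against -2.22 to -0.59 in 16L:8D, a difference of 1.68 (SE 0.72, adjusted p 0.324). DM13721P2, a chitinase, differed by 0.71 (SE 0.24, adjusted p 0.268). The cuticle protein DM12885P2 differed by 1.70 (SE 0.76), with 2.88 between the A animals and 0.51 between the B animals.

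Of 9 yolk, eggshell and egg probes, 1 had an unadjusted p below 0.05 and was higher, and the median was 0.74. That probe, DM03056P3, a putative Notch of developmental cell signalling, differed by 1.81 (SE 0.48, adjusted p 0.245), and was well above background on 6 of the 8L:16D arrays and 2 of the 16L:8D arrays. The vitellogenin probes took opposite signs: DM00375P2 differed by 0.24 (SE 0.22) and DM01555P3 by -1.08 (SE 0.69, adjusted p 0.473). Of 27 basement membrane and adhesion probes, 3 were higher and 1 lower (median 0.29), among them collagen XVIII (DM05241P2), at 0.79 (SE 0.24), and laminin beta-1 (DM05084P2), at 0.87 (SE 0.29).

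Digestion and sugar metabolism gave members at both ends. Of 17 peptidases, 3 were higher and 1 lower at an unadjusted p below 0.05 (median 0.41). Beside chymotrypsin, the serine protease Jonah 65Aiv (DM02831P3) differed by 1.66 (SE 0.55, adjusted p 0.264), and from 0.59 to 1.97 over 25 alternatives. It was well above background on 6 of the 8L:16D arrays and 4 of the 16L:8D arrays. Of 21 sugar metabolism and carbohydrate digestion probes, 5 were higher and 4 lower (median -0.07).

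DM08772P1 encodes 6-phosphofructo 2-kinase/fructose 2,6-bisphosphatase, which sets the level of a main activator of glycolysis. It ran from -4.23 to -3.35 in 8L:16D, against -6.05 to -4.18 in 16L:8D, a difference of 1.11 (SE 0.26, adjusted p 0.185), and was well above background on 6 of the 8L:16D arrays and 4 of the 16L:8D arrays. DM00868P2, glucose dehydrogenase, ran from -3.77 to -3.08 in 8L:16D, against -6.13 to -4.19 in 16L:8D with no overlap, a difference of 1.20 (SE 0.28, adjusted p 0.185), with 6 and 5 arrays well above background in 8L:16D and 16L:8D. Of other probes with that name, DM12607P4 differed by -0.20 (SE 0.46) and DM11070P3 by 0.02 (SE 0.59). DM00907P2, named glucose dehydrogenase (FAD, quinone), was higher in 8L:16D. It was well above background on 3 of the 8L:16D arrays and 0 of the 16L:8D arrays, so no fold is given. DM00759P3, phosphoglucose isomerase of glycolysis, was lower in 8L:16D, with a difference of -0.68 (SE 0.22, adjusted p 0.264).

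Of 20 lipid probes, 3 were higher and 3 lower, with the lowest median of the 18 lists, -0.21. ATP-citrate synthase (DM03431P3), which supplies acetyl-CoA for fatty acid synthesis, ran from -2.81 to -2.11 in 8L:16D, against -2.06 to -0.62 in 16L:8D with no overlap, a difference of -0.80 (SE 0.27, adjusted p 0.269). A CoA ligase, DM06877P4, differed by 1.99 (SE 0.61, adjusted p 0.252) and was well above background on 6 of the 8L:16D arrays and 2 of the 16L:8D arrays.

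Of 23 detoxification enzymes, 5 were higher and 4 lower (median -0.08). A sulfotransferase, DM02287P2, differed by 2.00 (SE 0.49, adjusted p 0.224), and from 0.61 to 2.40 over 25 alternatives. It was well above background on 6 of the 8L:16D arrays and 4 of the 16L:8D arrays. Cytochrome P450 3A40 (DM04557P3) ran from -2.84 to -2.47 in 8L:16D, against -2.44 to -1.32 in 16L:8D without overlap, a difference of -0.67 (SE 0.18, adjusted p 0.245). Cytochrome P450 305a1 (DM12027P2) was well above background on 0 of the 8L:16D arrays and 2 of the 16L:8D arrays, so no fold is given. Its measured values overlapped, from -7.56 to -6.46 in 8L:16D, against -7.16 to -3.53 in 16L:8D (limma adjusted p 0.246).

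Medians of the protein synthesis and folding lists lay from 0.02 to 0.25, around the 0.18 of the whole table they were drawn from. Of 21 proteasome probes, 3 were higher and 1 lower at an unadjusted p below 0.05, and the median was 0.20. Differences were above 0 for 17 of them (81%), beside 63.5% of the whole table. The beta subunit DM02051P3 had a median of -2.55 in 8L:16D, against -3.42 in 16L:8D, without overlap of the groups. Its difference was 0.87 (SE 0.24, adjusted p 0.245). DM02780P1, beta type 3, differed by 0.84 (SE 0.25), and from 0.12 to 1.15 over 25 alternatives. It was well above background on 6 of the 8L:16D arrays and 3 of the 16L:8D arrays. Of 19 translation and tRNA ligase probes, 4 were higher and 0 lower (median 0.24).

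Translation factor 5A-1 (DM07557P1) ran from 2.34 to 2.83 in 8L:16D, against 1.30 to 2.26 in 16L:8D without overlap, a difference of 0.77 (SE 0.21, adjusted p 0.245). Phenylalanine tRNA ligase (DM00156P3) differed by 0.68 (SE 0.23), also without overlap. The 26 ribosome biogenesis probes had 2 higher and 1 lower (median 0.11). One of those higher was a methyltransferase, DM00897P3, at 0.69 (SE 0.19). The 22 splicing probes and the 10 T-complex chaperonin probes had 0 with an unadjusted p below 0.05, with medians of 0.17 and 0.25. The chaperonin probe with the smallest unadjusted p, 0.0569, was the epsilon subunit (DM00353P1), at 0.45 (SE 0.22).

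The list of heat shock proteins and co-chaperones also took in prolyl isomerases. It had 1 probe higher and 2 lower of 7, with a median of 0.02. Both lower probes, DnaJ protein 1 and the major Hsp70, were selected on the first trial, the arrays compared here. The co-chaperone DnaJ protein 1 (DM00620P2) was held to 0.02 to 0.24 in 8L:16D and ran from 0.31 to 1.19 in 16L:8D, a difference of -0.67 (SE 0.17, adjusted p 0.245) without overlap. The major Hsp70 (DM00226P3) differed by -0.80 (SE 0.22, adjusted p 0.245), by -0.29 between the A animals and by -1.31 between the B animals. The probe higher in 8L:16D, FKBP1B (DM01752P3), is a prolyl isomerase and differed by 0.87 (SE 0.35).

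Of 10 histone and DNA replication probes, 1 was higher and 1 lower (median 0.34). The lower one was the replication licensing factor Cdc6 (DM05520P4), at -0.67 (SE 0.18, adjusted p 0.245). Of 4 probes for oxygen, haem and iron, 1 had an unadjusted p below 0.05: 5-aminolevulinate synthase (DM11242P3), the first enzyme of haem synthesis, at 0.59 (SE 0.28). Hemoglobin (DM01567P2) differed by -1.05 (SE 0.53, adjusted p 0.368), by -1.85 between the A animals and by -0.25 between the B animals. It was well above background on 4 of the 8L:16D arrays and 6 of the 16L:8D arrays.

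Outside the lists, 3 annotated probes of the methods' rule were picked after their values were seen, because their groups did not overlap. Ornithine decarboxylase (DM05995P1), the first enzyme of polyamine synthesis, ran from -2.98 to -2.32 in 8L:16D, against -3.83 to -3.12 in 16L:8D, a difference of 0.74 (SE 0.20, adjusted p 0.245). A C1q-like protein (DM13474P3) differed by 1.76 (SE 0.39, adjusted p 0.185) and was well above background on 6 of the 8L:16D arrays and 1 of the 16L:8D arrays. An S6 kinase-like protein (DM09584P2) ran from -2.61 to -2.26 in 8L:16D, against -2.16 to -1.40 in 16L:8D, a difference of -0.63 (SE 0.17, adjusted p 0.245).

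**Figure D3:**
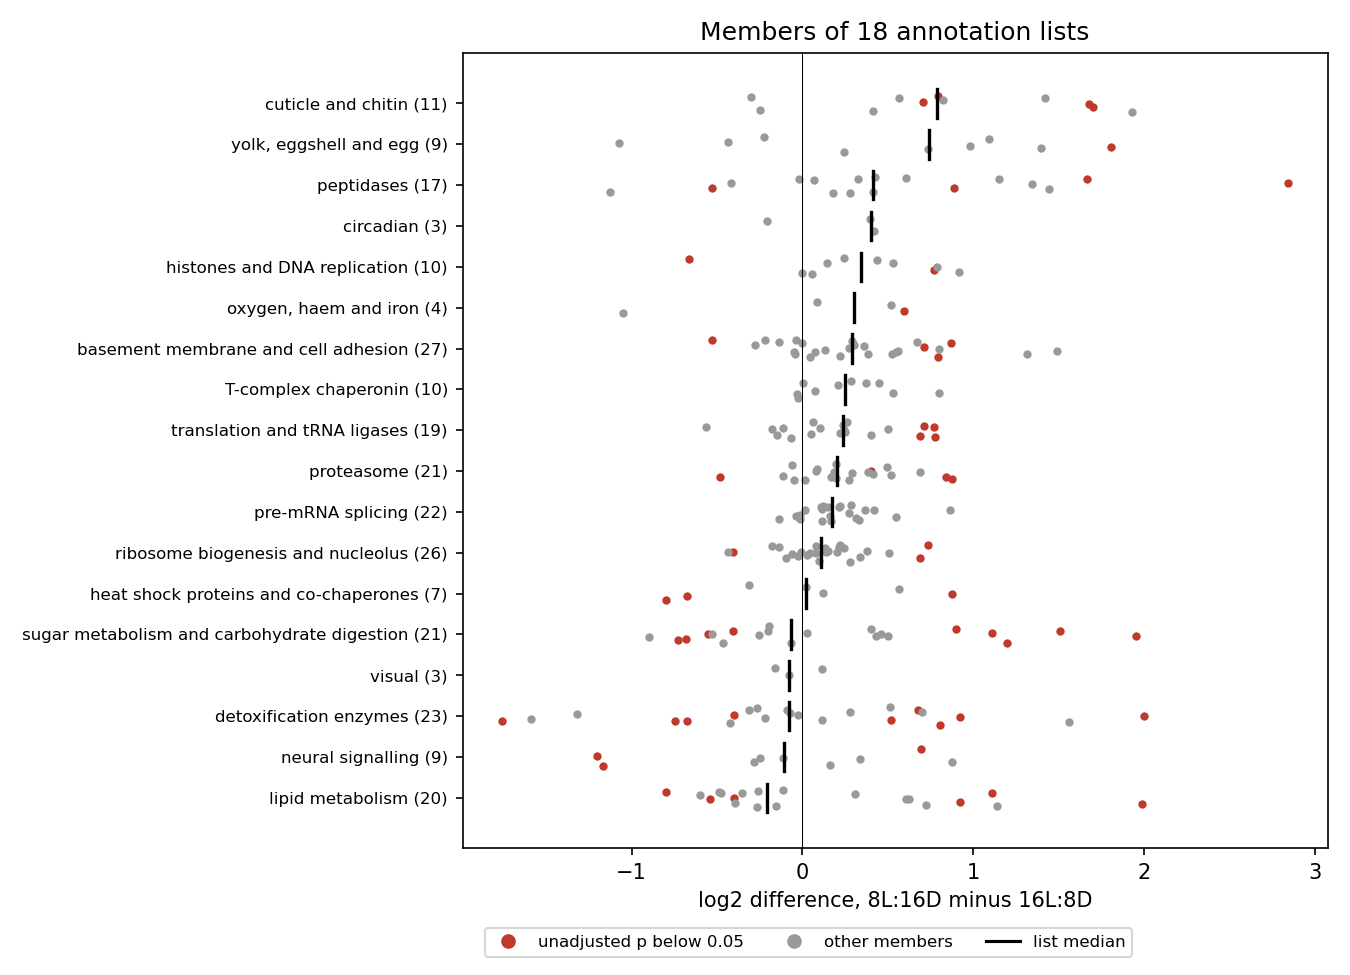
Log2 difference (8L:16D minus 16L:8D) of each member of 18 annotation lists, 1 point a probe, with the number of members after the name and a bar at the list median. Red points have an unadjusted p below 0.05. Medians run from -0.21 for lipid metabolism to 0.79 for cuticle and chitin, and points of both signs occur in each list.

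How far this difference followed variation that animals showed within a photoperiod was measured next. Components, which are directions along which many probes vary together, were taken from the 18 arrays of the other photoperiods after removal of their photoperiod means, over 8709 probes well above background on all 30 arrays. The first 2 held 31.8% and 28.6% of the variance within those photoperiods. Of the squared difference between 8L:16D and 16L:8D, 4.61% lay on the first component and 42.2% on the second, together 46.9%. The same components held 15.3% and 29.0% of the variance among animals within the 8L:16D and 16L:8D groups, together 44.3%. Summed over the first 2 components, the shares of the difference between groups and of the spread within them were alike. Taken singly they were not. The first held less of the difference than of the spread, and the second held more.

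The scores showed where that share came from. On component 2 the 8L:16D animals lay close together, from -34.6 to -4.3 (mean -17.4 ± 10.8, SD, n = 6). The 16L:8D animals split, with replicates 1A, 2B and 3A at 70.9, 60.9 and 33.2 and replicates 1B, 2A and 3B at -10.4, -23.0 and -27.3 (mean 17.4 ± 43.4). The high and the low animals of 16L:8D came from the same 3 chambers, and the low ones lay within the range of 8L:16D. The mean difference of -34.8 had an exact two-sided permutation p of 0.117 over animals (0.195 after Benjamini-Hochberg adjustment over 5 components) and of 0.1 over chambers, the smallest that 3 against 3 can give. Replicate 3A of 16L:8D, the dim array, was among the high animals. Without it the first 2 components took up 35.1% of the difference and 43.6% of the variance within groups.

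Component 3 held 13.0% of the squared difference and 5.19% of the within-group variance. Its mean score was 9.64 ± 10.3 in 8L:16D, against -9.64 ± 15.9 in 16L:8D, with an exact permutation p of 0.039 over animals (adjusted 0.195). Components 4 and 5 held 0.557% and 4.26%.

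**Figure D4:**
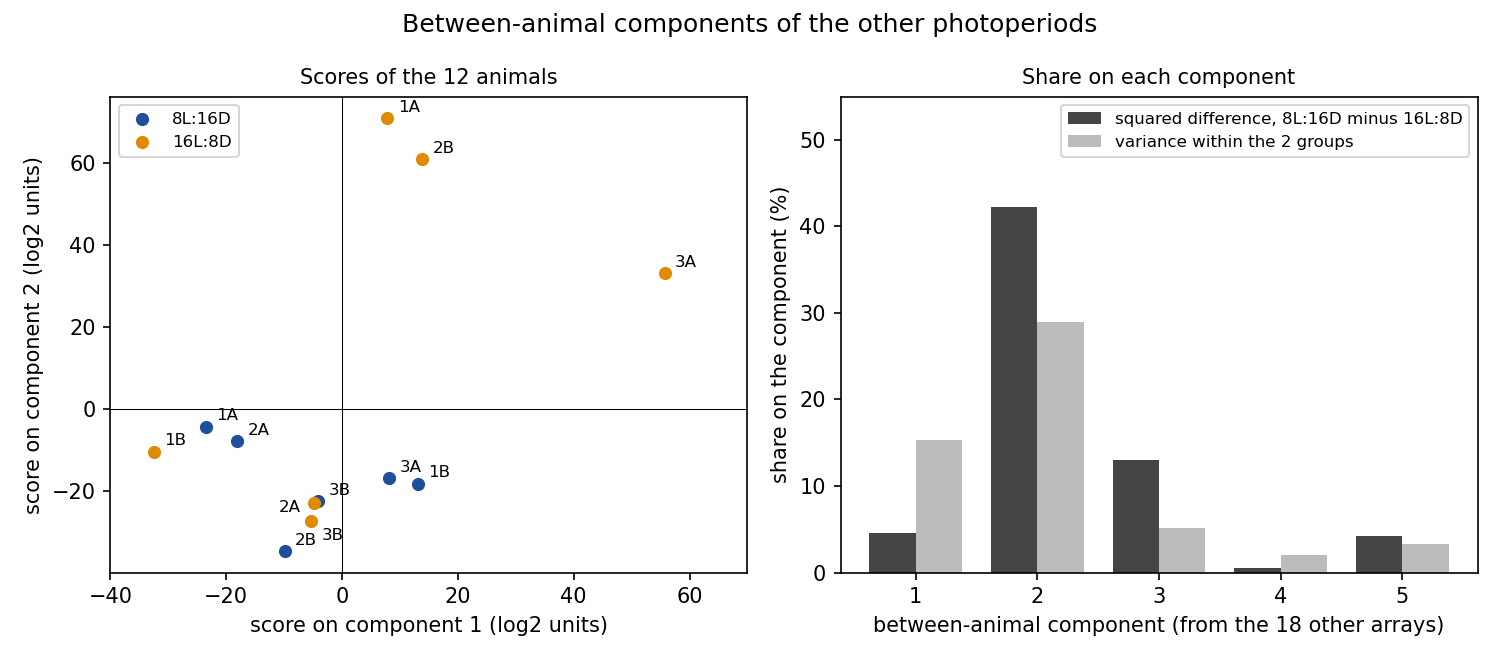
Left, scores of the 12 animals on the first 2 between-animal components in log2 units, with chamber number and animal letter (8L:16D blue, 16L:8D orange). Right, share in percent of the squared group difference (dark) and of the variance within both groups (light) on each of 5 components. On component 2 the 3 high 16L:8D animals, 1A, 2B and 3A, score 33.2 to 70.9 and all others fall below 0.

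The probes at the ends of component 2 moved in opposition. At loadings above 0.05, a limit set after seeing the values, lay 57 probes, whose log2 differences were all below 0 (median -3.04, from -5.30 to -0.83). At loadings below -0.05 lay 18 probes, all above 0 (median 2.96, from 1.28 to 4.37). An unadjusted p below 0.05 was reached by 34 of the 57 and 8 of the 18, against 14.2% of all probes. DM07809P1 was the 1 probe of both sets that met the methods' rule, beside 1.03% of all probes, and none had a name in the study's table. The mean log2 value of the 57 probes ran from -1.71 to -0.30 in 8L:16D, while in 16L:8D it was 5.84, 5.76 and 3.03 in replicates 1A, 2B and 3A and 0.43, -1.78 and -1.38 in replicates 1B, 2A and 3B. The 18 probes mirrored them, from 2.17 to 4.62 in 8L:16D, against -3.29 to 3.74 in 16L:8D.

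Of the 100 probes with the largest differences, 99 had a loading of the opposite sign to their difference, against 5114 of all 8709. Across the 8709 probes the difference correlated with the loading at -0.651, a description over probes that share the same 30 arrays. The root mean square difference was 0.573 in log2 units, 0.560 after removal of the first component and 0.418 after removal of both.

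**Figure D5:**
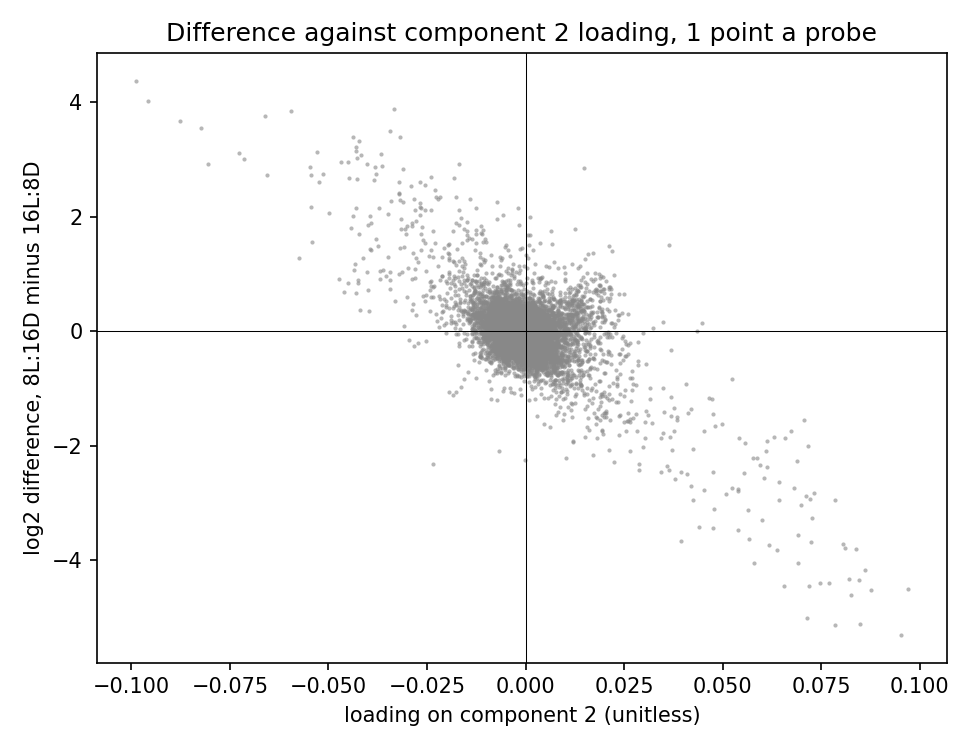
Log2 difference (8L:16D minus 16L:8D) of 8709 probes against their loading on between-animal component 2, which was computed without the 12 arrays compared. Each point is a probe, and 99 of the 100 largest differences have a loading of the opposite sign.

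Of 79 probes that met the methods' rule and had a loading, 5 (6.33%) lost over 0.5 of their difference once both components were removed, beside 1960 of all 8709 (22.5%). The sign of the loading was opposite to that of the difference for 60 of the 79 (75.9%), beside 58.7% of all 8709. The rule itself asks for differences that are large against the spread within groups, so these shares are a description. The choline transporter kept a difference of -0.96 of its -1.17, DM02748P1 kept -1.52 of its -1.93, and chymotrypsin (DM04058P1) came to 3.46. With the scores of both components as covariates in the fit, the adjusted p was 0.0363 for DM14137P3 and 0.167 for DM05417P2.

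Among named transcripts, those with the lowest loadings on component 2 were histone H2A (DM02525P1), caveolin-1 (DM06767P1), a membrane scaffold protein, 2 cuticle proteins (DM12209P2 and DM12885P2) and collagen IV alpha 1 (DM05282P3). The highest loading of a named transcript, 0.026, also belonged to a cuticle protein, the endocuticle glycoprotein SgAbd-2 (DM06037P2), with a log2 difference of -0.25. Of 8 cuticle and chitin probes with a loading, 4 had a negative one. The log2 difference of caveolin-1 was 1.41 (SE 0.95), and 0.08 after removal of both components, that of the cuticle protein DM12885P2 1.70 and 0.44, and that of collagen IV 1.31 and 0.71. That of histone H2A was 0.91 (SE 1.20) before and -0.80 after removal. All 16 proteasome probes, all 16 splicing probes and all 6 T-complex probes with a loading had a negative one, against 5032 of all 8709 probes. So did 22 of 23 ribosome biogenesis probes, 13 of 14 translation probes, 6 of 6 histone and replication probes and 4 of 4 egg probes. Negative loadings were fewer in sugar metabolism (3 of 10), lipid metabolism (4 of 13), peptidases (2 of 7) and the visual list (0 of 3). The share over the whole table that the lists came from was not computed. No cause for the split of the 16L:8D animals was tested.

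The control animals also varied more at single probes. The median SD over the 8709 probes was 0.286 in 8L:16D, against 0.387 in 16L:8D, and 6295 probes (72.3%) were more variable in 16L:8D. The root mean square distance between chamber mates was 0.666 in 8L:16D, against 1.20 in 16L:8D, and that between animals of different chambers was 0.664 in 8L:16D, against 1.12 in 16L:8D (medians over 3 and 12 pairs). Chamber mates were therefore no closer than other animals of their photoperiod in either group.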

How the data were processed

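From each animal, 80 ng of RNA was dyed with Cy3 for a 1-colour Agilent array of 14338 non-control probes. The deposited intensity values are the scanner software's processed signal, and per the file headers it was Feature Extraction 10.7.3.1. The authors also deposited log2 values, shifted by each array's 75th percentile and centred on each probe's median, used here as an alternative.

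Signals were divided by the array's 75th percentile and taken to log2. Duplicate spots were averaged, and 222 spots flagged as outliers (0.0487%) were set to missing. limma 3.58.1 (R 4.3.3) was fitted to all 30 arrays with photoperiod, subsample letter and their interaction, with Benjamini-Hochberg adjustment over 14336 probes and a threshold of 0.05. Animals of 1 chamber were treated as separate samples, so p-values measure the spread between animals. The number of arrays limits the precision.

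In simulated arrays with 14211 probes, sets of 50 probes were lowered or raised in 8L:16D by 1 or 2 log2 units. Of these, 72% lowered by 2, 44% lowered by 1, 32% raised by 1 and 82% raised by 2 were called. So were 9 of 14011 unchanged probes. Noise was independent between probes, with the same SD in every photoperiod. The shared between-animal components and the wider spread of 16L:8D were not simulated, so these shares need not hold for the real arrays. No gene reference matched the probes, so the names are those of the study. Probes were named by rule: those past the threshold, the 10 highest and 10 lowest that met the methods' rule and were well above background on all 12 arrays (in part), those seen in 1 group only, the study's functional targets, up to 3 of each list and the ends of the components. Probes and lists were chosen with earlier results of these data known.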

Additional observations from a re-analysis of the deposited data

Results flagged for a closer look

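Single animals far from the rest of their group were found in 9 of 144 groups examined, 8 of them among 130 probe groups. Chance alone gives about 1 in 20. Replicate 3A of 16L:8D had 69.5% of probes well above background, against 79.4% to 80.9% in the other 5. The same animal was apart for glucose dehydrogenase (DM00868P2) at -6.13, for ATP-citrate synthase (DM03431P3) at -0.62 and for a chitinase (DM13721P2) at -3.16, in log2 units, where the other 16L:8D animals ran from -4.75 to -4.19, from -2.06 to -1.54 and from -3.86 to -3.60.

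In 8L:16D, replicate 2B was apart for DM07008P1 at 1.42 (others 3.04 to 3.93), for DM08102P3 at 3.55 (others 5.03 to 5.55) and for a rhodopsin probe, DM01796P2, at -0.66 (others -0.97 to -0.87). Replicate 1A was apart for DM10367P4 at 0.29 (others -3.33 to -1.99), and replicate 3B for the S6 kinase-like probe DM09584P2 at -2.61 (others -2.39 to -2.26).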

How the results depend on the processing

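The 2 probes past the adjusted threshold became 0 with normexp background correction and quantile normalization together (2107 probes at an unadjusted p below 0.05) and with slide as a fixed block in place of the subsample letter (941), 1 with the filter for probes well above background on all 12 arrays, with chamber means, with the 12 arrays alone, and with the first or the first 2 components as covariates, and 23 with array quality weights. Leaving out 1 chamber gave 0 to 2, and it was 0 when replicate 2 or 3 of 8L:16D was left out (1433 and 1212 at an unadjusted p below 0.05) or replicate 1 or 2 of 16L:8D (1461 and 1934). The 148 probes of the methods' rule became 81 with normexp and quantile normalization, 93 with the filter, 281 with chamber means, 237 with the 12 arrays alone and 582 with array quality weights, and 61 to 334 without 1 chamber, the lowest when replicate 3 of 8L:16D and the highest when replicate 2 of 16L:8D was left out. Without the 8L:16D array scanned on the later day, an alternative chosen after seeing the data, the counts were 1 and 228, of which 32.5% were higher in 8L:16D. That share was 34.8% with slide as a fixed block and 75.6% with 2 components as covariates. The share of the difference on the first 2 components was 54.7% over all probes, 62.8% with components of the 12 arrays and 55.1% with those of all 30, and 35.1% to 52.0% without 1 chamber or array, with 35.8% without replicate 2 of 8L:16D. Same-numbered replicates correlated at 0.170, -0.0193 and 0.335 in their deviations, and differently numbered ones at -0.486 to 0.272. So few values cannot decide whether the numbers pair the samples. With the replicate number as a block and no letter the counts were 2 and 204, beside 2 and 207 without the letter alone.

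The sign turned in some of these settings for probes near 0 and for DM02525P1, whose main log2 difference was 0.91 (SE 1.20). With slide as a fixed block, DM03055P2 came to 0.04, DM02525P1 to -0.31 and DM06155P2 to 0.17. With 2 components, DM02525P1 came to -1.06, DM06155P2 to 0.03 and DM12109P1 to -0.02. With array weights, DM12611P4 came to -0.01 and DM12109P1 to -0.03, and with 1 component DM12611P4 came to -0.01. Without single chambers or arrays, DM00375P2 ran from -0.02 to 0.38, DM06155P2 from -0.23 to 0.05 (0.02 in another), DM12611P4 from -0.20 to 0.35 (-0.06 and -0.01 in others) and DM12109P1 from -0.03 to 0.16 (0 in another). The cause was not tested in any of these.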
